A study of Mus musculus with 19 samples.

Results

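The Usp49 locus of the mouse was taken as the coding genes Usp49 and Gm20517 with 2 kb on each side, chr17:47609585-47688739 in mm10, and its members were the CpG positions in this window that the authors' deposited tables list. It held 18 of the 8525 positions listed in any of the 3 tables. The tables compare liver DNA of 5 MAT1A KO mice given SAMe (S-adenosylmethionine), 6 MAT1A KO mice given placebo and 8 MAT1A WT mice with no treatment, 19 animals in all, each 10 months old. According to the series title, treatment lasted 8 weeks. All KO animals, on placebo and on SAMe alike, lacked Mat1a, the gene of the liver methionine adenosyltransferase, and no WT animal received placebo or SAMe, so each comparison with WT changes both genotype and procedure. The locus was chosen by the number of positions that these same tables list there, so the counts and differences below are descriptions and carry no test.

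Usp49 is a ubiquitin-specific protease, an enzyme that cuts ubiquitin from other proteins. In human cells it removes ubiquitin from histone H2B, a mark left on transcribed genes, and has been linked to splicing. SAMe is the methyl donor that DNA methyltransferases use to methylate cytosine in CpG dinucleotides, and the MAT1A enzyme makes it in hepatocytes. Methylation was measured by reduced-representation bisulfite sequencing, which reads cytosines in DNA fragments released by restriction enzymes, here MspI and TaqαI.

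The deposited tables hold a group difference in percentage points, a p-value and a q-value for each position, with no methylation level, read coverage or value per animal. The depth is therefore unknown, no value below carries an SD, and differences between animals cannot be shown. Only positions with an absolute difference above 20 are listed, and a position that is absent may have missed the thresholds or lacked reads. The headers leave out which group was taken from which. The differences were read as KO minus WT and as SAMe minus placebo, and the opposite order would turn every direction round together.

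The annotation placed several genes on this window. Gm20517 (47611585 to 47686739, 75155 bp) has the same annotated start as Med20, a subunit of the Mediator complex that links transcription factors to RNA polymerase II, and the same annotated end as Usp49. Med20 itself ends at 47624251, and Usp49 runs from 47630690 to 47686739, a length of 56050 bp on the plus strand. Bysl, a factor in ribosome assembly, reaches into the upstream flank. Tomm6 (a subunit of the mitochondrial outer membrane import complex), Frs3 (an adaptor of fibroblast growth factor receptors) and Prickle4 reach into the downstream flank. Exons and introns are not distinguished in the gene table used here.

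No position in the 250 bases before the annotated start of Usp49, or in the 250 bases before the start shared by Gm20517 and Med20, was listed in any table. Both sequences are shown so that the CpG dinucleotides a promoter site could have used can be seen, with each CG in capitals (RefSeq, GRCm38.p6, plus strand, 5′ to 3′, chr17:47630440-47630689 and chr17:47611335-47611584).
Usp49: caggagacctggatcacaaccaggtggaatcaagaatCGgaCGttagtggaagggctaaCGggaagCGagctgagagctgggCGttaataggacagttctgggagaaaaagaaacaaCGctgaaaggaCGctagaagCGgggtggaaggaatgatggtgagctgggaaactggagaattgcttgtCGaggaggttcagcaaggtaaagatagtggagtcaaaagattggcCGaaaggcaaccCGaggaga
Gm20517 and Med20: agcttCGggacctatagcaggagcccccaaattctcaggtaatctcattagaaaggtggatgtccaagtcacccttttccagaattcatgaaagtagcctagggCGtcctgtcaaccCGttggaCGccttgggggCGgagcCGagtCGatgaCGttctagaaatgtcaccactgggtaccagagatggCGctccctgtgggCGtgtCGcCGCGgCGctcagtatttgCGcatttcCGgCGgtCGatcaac

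The Usp49 sequence held 11 CG dinucleotides and the Gm20517 and Med20 sequence 18, beside a median of 6 over the 32817 promoters in the RefSeq table. The MspI motif CCGG, which reads the same on both strands, occurred 0 times in the Usp49 sequence and 1 time in the other, and 47.0% of all promoters of this length held it. The TaqαI motif TCGA, also the same on both strands, occurred 1 time and 2 times, beside 18.5% of all promoters. Listed sites in promoters were rare everywhere. Windows from 250 bases before to 50 after a start held one in 0.140% of cases for KO SAMe vs WT and in 0.192% for KO placebo vs WT.

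At every position of the locus listed in a WT comparison, methylation was lower in the KO group of that comparison than in WT. There were 11 listed sites in KO SAMe vs WT and 18 in KO placebo vs WT, all lower in KO, and 0 in KO SAMe vs KO placebo, in the authors' deposited tables. Nearly all listed sites of the whole tables were lower in KO as well, 5330 of 5383 in KO SAMe vs WT and 6678 of 6721 in KO placebo vs WT, so the direction at the locus was that of the background. For background on genes, 10.8% of coding genes had a listed site in the gene or within 2 kb in KO SAMe vs WT, 12.5% in KO placebo vs WT and 0.658% in KO SAMe vs KO placebo. The sites fell in only 2 places. A pair lay in Med20 and Gm20517, outside Usp49, and the others formed a compact run inside Usp49, which Gm20517 also spans.

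**Figure D1:**
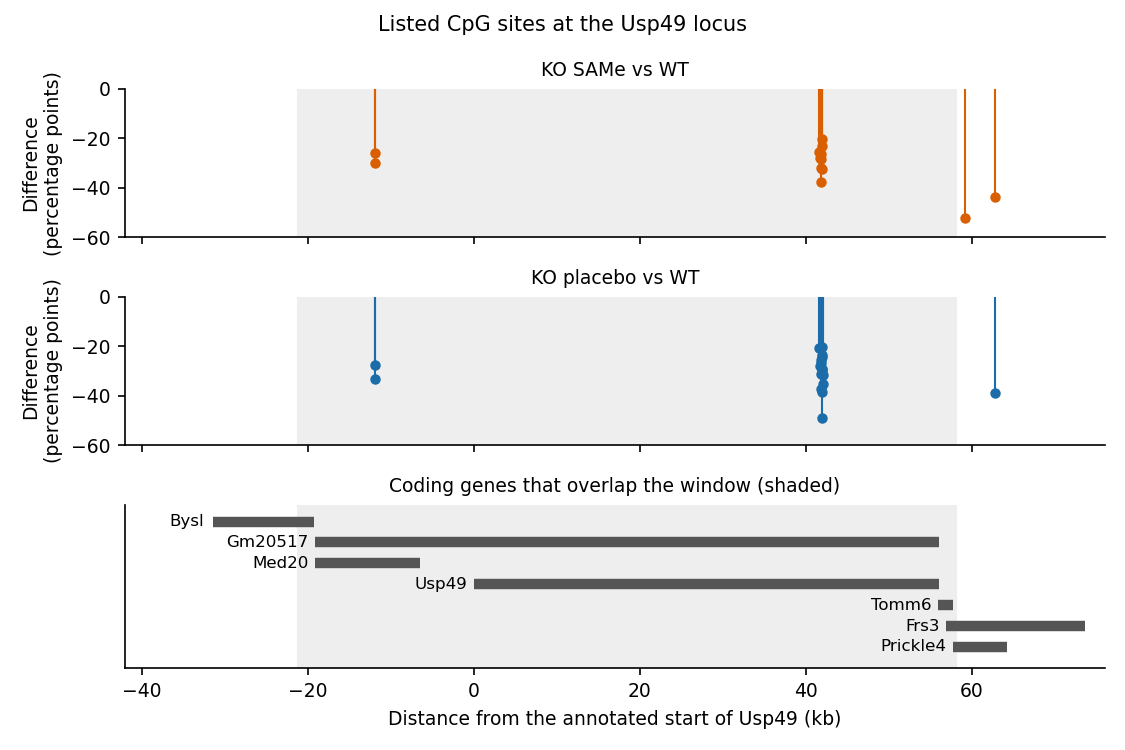
Differences from WT (percentage points, vertical axis) of the listed CpG sites, by distance in kb from the annotated start of Usp49, for KO SAMe vs WT (top) and KO placebo vs WT (middle), with the coding genes below and the window shaded. Inside the window the sites stand in 2 places, a pair within Med20 and a run about 42.0 kb into Usp49, and all are below 0.

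Usp49 carried 9 of the sites in KO SAMe vs WT and 16 in KO placebo vs WT. By number of sites it was exceeded, with Gm20517 counted, by 21 other genes in KO SAMe vs WT and by 8 in KO placebo vs WT. The run began 41.6 kb downstream of the annotated start and lay 14.0 kb or more before the annotated end. It spanned 276 bp in KO SAMe vs WT (chr17:47672334-47672609) and 381 bp in KO placebo vs WT (chr17:47672334-47672714). Its mean difference was −28.1 percentage points over the 9 sites of KO SAMe vs WT, with values from −37.6 to −20.1, and −30.1 over the 16 sites of KO placebo vs WT, with values from −49.1 to −20.3, in the authors' deposited tables. The median of all listed sites was −26.6 in KO SAMe vs WT and −25.9 in KO placebo vs WT in the authors' deposited tables. All 9 q-values of the run were listed as 0 in KO SAMe vs WT, and 13 of 16 in KO placebo vs WT, where the largest was 1.22e-11.

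By strand, the run was made of 4 short stretches, each with sites on a single strand, that alternated between the plus and the minus strand and stood 71 to 85 bp apart. No CpG of the locus was listed on both strands. The first stretch, on the plus strand, held 47672334 at −25.5 in KO SAMe vs WT and −20.9 in KO placebo vs WT, and 47672378 at −27.8 and −27.9 in the same tables. The second, on the minus strand, held 47672463, the lowest value of the run in KO SAMe vs WT, at −37.6 there and −37.3 in KO placebo vs WT in the authors' deposited tables. Its other sites, 47672482 and 47672494, stood at −28.5 and −26.4 in KO SAMe vs WT, and at −26.8 and −25.6 in KO placebo vs WT. In both tables all 5 sites of these stretches were lower in KO than in WT.

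The third stretch, on the plus strand, held 5 sites in KO placebo vs WT and 4 of them in KO SAMe vs WT. It contained the smallest difference of the run, 47672588 at −20.1 in KO SAMe vs WT and −20.3 in KO placebo vs WT in the authors' deposited tables, just inside the threshold of 20. The position 3 bp before it, 47672585, stood at −23.0 and −23.6 in the same tables. The outer sites of the stretch were lower, 47672571 at −31.8 in KO SAMe vs WT and −31.1 in KO placebo vs WT, and 47672609 at −32.6 and −30.6. Position 47672601 was listed in KO placebo vs WT only, at −24.3.

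The fourth stretch, on the minus strand, was listed in KO placebo vs WT and had no listed site in KO SAMe vs WT. Its 6 sites lay within 35 bp and averaged −35.5 percentage points, the lowest mean of the 4 stretches in the authors' deposited table. It contained the lowest value of the locus, −49.1 at 47672698, with −35.1 only 2 bp away at 47672700 and −31.8 at 47672714. The remaining sites stood at −38.7 (47672680), −29.4 (47672683) and −29.2 (47672688) in the authors' deposited table. Neighbouring sites thus differed by up to 14.1 within 2 bp.

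**Figure D2:**
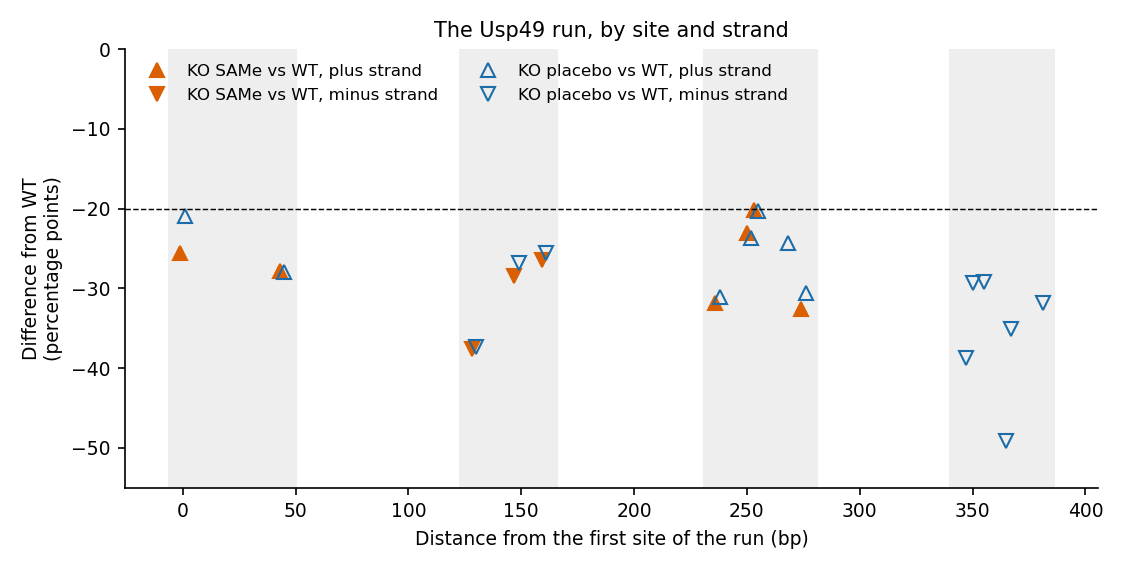
Difference from WT (percentage points, vertical axis) at each site of the Usp49 run by distance in bp from its first site, with filled symbols for KO SAMe vs WT, open symbols for KO placebo vs WT, upward triangles for the plus strand and downward triangles for the minus strand. The dashed line marks the threshold of 20, shaded bands mark the 4 stretches, and the last band holds 6 open symbols and no filled one.

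At 47672698 a difference inside 20 percentage points of WT under SAMe would need methylation to be over 29.1 points higher with SAMe than with placebo, and no site of the locus was listed in KO SAMe vs KO placebo. For the other 6 sites listed in KO placebo vs WT alone, the amount needed ran from 4.33 to 18.7, which is below the threshold of that comparison. Whether these 7 positions were covered in the SAMe-treated animals is not given in the sources used here, so a smaller difference, a q-value that did not pass and missing coverage cannot be told apart. Stretches lost whole from one table were not restricted to Usp49. Across KO placebo vs WT, 46 stretches on a single strand had at least 5 sites with gaps of at most 50 bp. Of these, 10 (21.7%), the fourth Usp49 stretch among them, had no site in KO SAMe vs WT. Another 22 had all of their sites there, and 1 of the 10 had a site in KO SAMe vs KO placebo.

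The pair in Med20 and Gm20517 lay 20 bp apart on the plus strand, 11.9 kb upstream of the annotated start of Usp49. Position 47618756 stood at −25.7 in KO SAMe vs WT (q = 1.34e-07) and −27.4 in KO placebo vs WT (q = 1.78e-07) in the authors' deposited tables. Position 47618776 stood at −29.9 (q = 7.53e-11) and −33.3 (q = 2.29e-11) in the same tables. These were the largest q-values of the locus in each table. With this pair, Gm20517 had 11 sites in KO SAMe vs WT and 18 in KO placebo vs WT, and it cannot be told from these positions whether they belong to Gm20517 or to the shorter gene that overlaps it.

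All 11 sites of KO SAMe vs WT were also listed in KO placebo vs WT, 100% of the first list and 61.1% of the second. Over all listed sites, the 3707 shared positions made up 68.9% of KO SAMe vs WT and 55.2% of KO placebo vs WT. Both comparisons use the same WT animals. At the 11 shared sites the mean was −28.1 percentage points in KO SAMe vs WT and −27.7 in KO placebo vs WT in the authors' deposited tables. The SAMe minus placebo difference, obtained by subtraction, was negative at 6 sites and positive at 5, from −4.65 at 47672334 to 3.35 at 47618776, with a mean of −0.37. The absolute difference had a median of 0.792 at the locus and of 3.27 over all shared sites. Only positions past the threshold in both WT comparisons enter these values. The 7 sites of the locus listed in KO placebo vs WT alone, with a mean of −33.9 there, are left out.

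Within the Usp49 run the subtraction gave a mean of −1.01 over 9 sites, with 6 negative and 3 positive values. Of 80 other coding genes with at least 5 shared sites, 23 had a smaller absolute mean than Usp49. Some neighbouring genes among the 80, such as Ctf1 and Ctf2, have identical values, so the genes are not all separate units. Both Med20 sites were positive, at 1.67 and 3.35. Without values per animal, none of these small differences can be set against the spread between mice.

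**Figure D3:**
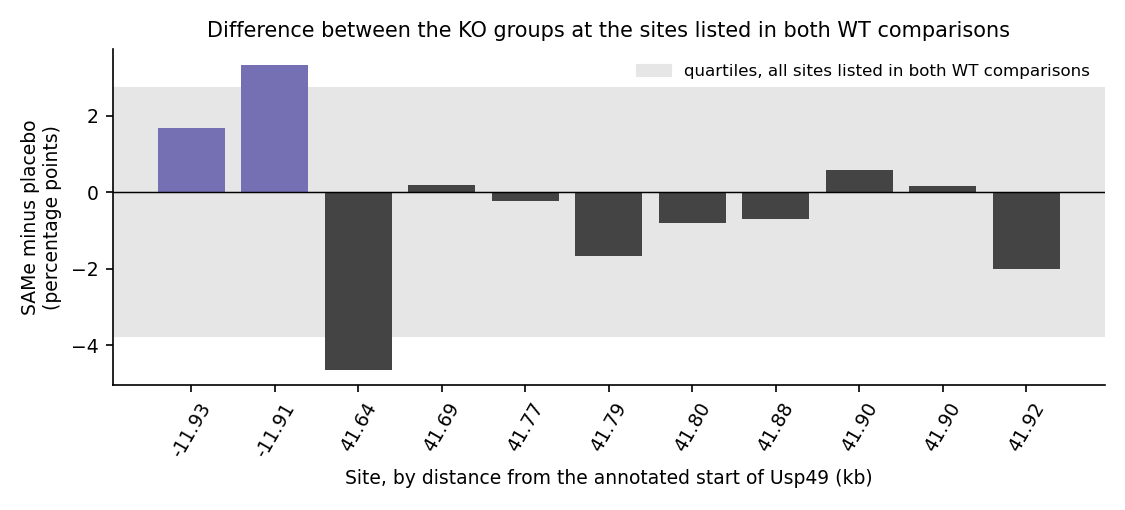
SAMe minus placebo difference (percentage points, vertical axis) by subtraction at the 11 sites listed in both WT comparisons, ordered by distance in kb from the annotated start of Usp49, with the Med20 pair in purple and the Usp49 run in dark grey. The grey band is the range between the quartiles of the 3707 shared sites, −3.75 to 2.75, and 9 of the 11 bars end inside it.

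Set beside other dense runs, with sites up to 1 kb apart joined, the Usp49 run was the sixth by number of sites of the 4618 in KO placebo vs WT. Those with more sites lay in Mn1 (48), Prob1 (29), Nfix (22), Fbrsl1 (20) and Zfp316 (19). In KO SAMe vs WT it had 9 sites, 12 runs had more and 5 others had as many. The largest there lay in Mn1 (46), Prob1 (31), Nfix (23), Fbrsl1 (16), and Bdh1 and Gcsh (13 each). Unlike the others, the Gcsh run was higher in KO, with a mean of 24.4, and had no site in KO placebo vs WT. The Usp49 mean of −30.1 in KO placebo vs WT was inside the range of the 17 other runs with at least 10 sites, −48.2 to −25.2 in the authors' deposited table. Of the Usp49 sites in KO placebo vs WT, 56.3% were also listed in KO SAMe vs WT, and in those 17 runs the share ran from 10% to 100% with a median of 84.2%. Losses of this size and incomplete sharing were both found in other dense runs.

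**Figure D4:**
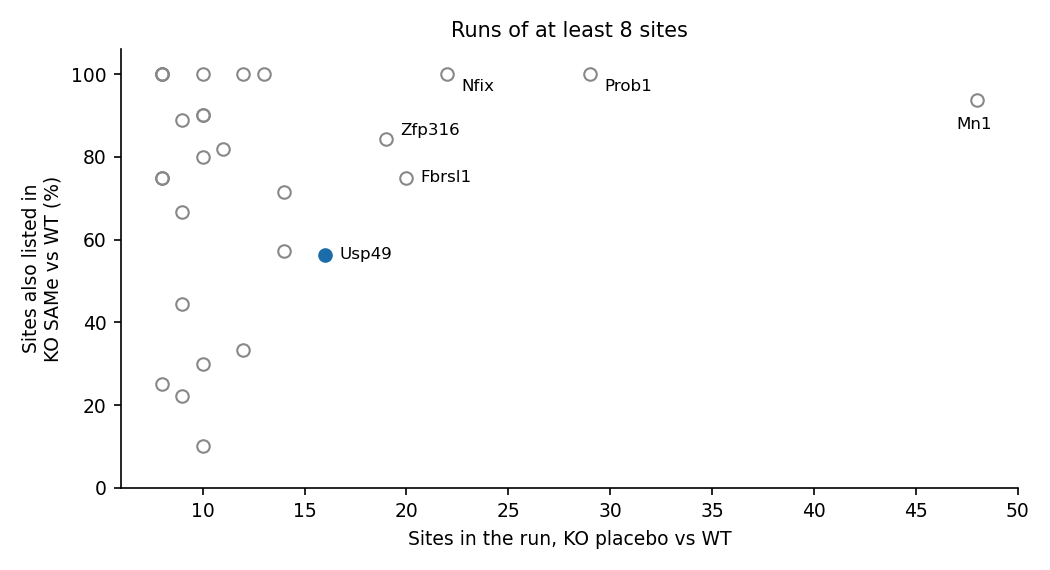
Share of sites also listed in KO SAMe vs WT (%, vertical axis) against the number of sites (horizontal axis) for each run of at least 8 sites in KO placebo vs WT, with Usp49 filled. Usp49, with 16 sites, is at 56.3%, below the 5 runs that have more sites.

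The genes whose pattern was most like that of Usp49 were found from the mean differences in both WT comparisons over shared sites, among 80 other coding genes with at least 5 such sites. Genes that overlap the locus, such as Gm20517, share its sites and were left out. Usp49 stood at −28.1 in KO SAMe vs WT and −27.1 in KO placebo vs WT over its 9 shared sites. The nearest was Arl5c, a small GTPase of the ARF-like family, at −27.3 and −27.0 over 5 sites, a Euclidean distance of 0.842 percentage points. Caskin2, a scaffold protein, followed at a distance of 0.982, then Sh3pxd2a, a scaffold of podosomes, at 1.35. Tsen54, a subunit of the tRNA splicing endonuclease, was at 1.48 and Sh3bp2, an adaptor of immune signalling, at 1.58. The likeness rests on 2 comparisons with shared WT animals. It leaves out the 7 Usp49 sites listed in KO placebo vs WT alone. Of the sites in KO placebo vs WT, 56.3% were shared for Usp49, but 100% for Arl5c, Caskin2 and Tsen54. For Sh3pxd2a it was 58.3% and for Sh3bp2 66.7%.

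Among other genes of histone ubiquitination, no gene had more than 5 listed sites in a table. The 10 genes of the H2B ubiquitin ligase and its partners, among them Rnf20 and Rnf40, had no listed site in any table. The shares of all coding genes were 10.8% in KO SAMe vs WT, 12.5% in KO placebo vs WT and 0.658% in KO SAMe vs KO placebo. Whether a list of only 10 genes departs from these shares was not tested. Of 16 H2B deubiquitinase and SAGA module genes, 1 (Usp49) had a site in KO SAMe vs WT, and 3 had one in KO placebo vs WT. Without Usp49, which was chosen for its sites, it was 0 of 15 and 2 of 15, beside 10.8% and 12.5% of all coding genes in these comparisons. The 3 were Usp49, Usp12 with 2 sites, the lower at −32.6, and Usp7, which also acts on p53 and its ligase, with 1 site at −21.6 in the authors' deposited table. The paralogue Usp44 and the SAGA enzyme Usp22 had none.

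The H2A list had sites in 4 of 16 genes (25%) in KO SAMe vs WT and 6 of 16 (37.5%) in KO placebo vs WT. The shares of all coding genes were 10.8% and 12.5%, and whether this small list departs from them was not tested. Its sites were lower in KO, as were nearly all listed sites. Bap1, which removes ubiquitin from H2A, had 2 sites in each table, the lower at −31.7 in KO SAMe vs WT and −32.7 in KO placebo vs WT in the authors' deposited tables. Pcgf2, a subunit of Polycomb repressive complex 1, had 5 sites in KO SAMe vs WT, the lowest at −39.1, and 1 in KO placebo vs WT at −33.0. These values belong to different positions. The related Pcgf3 stood at −23.3 in KO SAMe vs WT and, at the same position, −26.6 in KO placebo vs WT. The related Pcgf5 stood at −24.8 in KO SAMe vs WT and at −20.2 in KO placebo vs WT in the authors' deposited tables. The Pcgf5 values also belong to different positions. Asxl2, a partner of Bap1, had a site at −26.6 and Usp48 one at −23.5 in KO placebo vs WT only. Over the 3 lists without Usp49, 4 of 41 genes (9.76%) had a site in KO SAMe vs WT and 8 of 41 (19.5%) in KO placebo vs WT, beside the 10.8% and 12.5% of all coding genes. In KO SAMe vs KO placebo it was 0 of 41, beside 0.658%. With Usp49 the counts were 5 of 42 and 9 of 42 in the WT comparisons.

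In the family of ubiquitin-specific proteases, 4 of 47 genes had a site in KO SAMe vs WT and 7 of 47 in KO placebo vs WT. Without Usp49 it was 3 of 46 (6.52%) and 6 of 46 (13.0%), beside 10.8% and 12.5% of all coding genes, and 1 of 46 (2.17%) in KO SAMe vs KO placebo, beside 0.658%. Outside Usp49 no member had more than 2 sites in a table. Usp19 stood at −30.8 in KO SAMe vs WT and −30.1 in KO placebo vs WT at the same position, and Usp54 at −20.8 and −23.8, in the authors' deposited tables. Usp39, a splicing factor related to these proteases, had 1 site at −20.5 in KO SAMe vs WT alone. Usp13 had a site at −30.2 in KO placebo vs WT. It was also the single family member listed in KO SAMe vs KO placebo, at a different position that was higher with SAMe by 24.0 in the authors' deposited table.

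Just outside the window, the nearest listed site lay 1.13 kb beyond its downstream edge at 47689871, in Frs3 and Prickle4 and within 2 kb of Tomm6. It stood at −52.1 in KO SAMe vs WT in the authors' deposited table, lower than any site of the locus, and was not listed in KO placebo vs WT. The next, 47693423 in the same 2 genes, was listed in both, at −43.8 in KO SAMe vs WT and −38.9 in KO placebo vs WT in the authors' deposited tables. On the upstream side the nearest site was 39.7 kb away in Ccnd3, the gene of cyclin D3, at −20.4 in KO placebo vs WT alone.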

How the data were processed

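Reduced-representation bisulfite libraries (MspI and TaqαI, per the labels' protocols) of 19 mouse livers were summarised by the authors in 3 tables. Per the submitters' processing notes, the tools were CASAVA 1.8.2, Trim Galore, Bismark and methylKit and the build was mm10, without order or settings. The p-value, q-value and methylation difference in percentage points per CpG position were deposited by the authors, and which test gave them is not given in the sources used here. These files hold comparisons only, so the depth per sample is unknown and no animal could be weighed or left out.

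The members, gene lists and descriptions were chosen with earlier results of these data known. At 26 positions in all 3 tables, the differences added up within 1e-06 percentage points, so all tables use the same orientation. Genes were the 21900 entries marked protein coding in RefSeq's GRCm38.p6 table, whose primary coordinates mm10 shares. Listed sites inside RefSeq promoter windows fell on the C of a CG on their own strand in 87 of 87 cases for KO placebo vs WT. A site was assigned to a gene when inside it or within 2 kb. Sites at most 1 kb apart were joined into runs, and sites of a single strand at most 50 bp apart into stretches. All 42 entries of 3 gene lists matched the gene table. The family of ubiquitin-specific proteases was every coding gene whose symbol is Usp followed by digits only. Named sites were the first, last, largest or smallest of a run, those outside it, and those listed in a single WT comparison. Named genes were those overlapping the locus, those within 500 kb with a site, and list and family members with a site. The 5 genes most like Usp49 and the 5 largest runs (6 with ties) were named as well. Other sites of the run and list members without a site were named in addition. Assignment, runs and subtraction were tested on simulated data. Python 3.11.15, pandas 2.3.3 and numpy 2.4.6 were used.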

Additional observations from a re-analysis of the deposited data

How the results depend on the processing

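Of 82 values under other settings, over 16 counts and means, 73 stayed within 1.5 times the count or within the spread of the sites around the mean, and 9 moved. No mean changed sign. With an absolute difference of at least 30, the locus kept 3 sites in KO SAMe vs WT, 8 in KO placebo vs WT and 3 in both, and the mean in KO SAMe vs WT was −34.0. With at least 25, the histone ubiquitin lists had 3 genes with a site in KO SAMe vs WT, and the ubiquitin-specific proteases 2 in KO SAMe vs WT, 4 in KO placebo vs WT and 0 in KO SAMe vs KO placebo. With a flank of 5 kb the proteases had 7 genes in KO SAMe vs WT. These settings list fewer or more sites by construction. The extent of the locus and the gap that joins a run moved none of the values at the locus past these bounds. A stricter q-value and the joining of positions 1 bp apart could not change them. The largest q-value at the locus was 1.78e-07, and no CpG there was listed on both strands. Counts of 0 in KO SAMe vs KO placebo could not fall under stricter settings. These fixed outcomes are among the 73 values that stayed. The count of stretches, with its gap of 50 bp and the other gaps of 25 and 100 bp, was chosen after seeing the data. No paired analysis was possible because the tables hold no value per animal, and for the same reason no animal could be left out. Depth limits every value here to an unknown degree.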

Other observations

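Within 500 kb of the window on either side, 10 further sites were listed in KO SAMe vs WT and 19 in KO placebo vs WT, with 0 in KO SAMe vs KO placebo. All but 1 in each WT comparison were lower in KO. The exception was the same position in both, 47385487 in Guca1b, which encodes a guanylate cyclase activator of photoreceptors. It was higher in KO by 34.3 percentage points in KO SAMe vs WT and by 23.6 in KO placebo vs WT in the authors' deposited tables. On the upstream side it was the single site of KO SAMe vs WT, against 9 sites in KO placebo vs WT. Ccnd3 accounted for 4 of these 9, from −27.8 to −20.4, and AI661453 for 1 at −21.7. Trerf1, a transcriptional regulator of steroid synthesis genes, accounted for 2 at −25.0 and −21.0 in the authors' deposited table.

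Downstream, Tfeb, a regulator of lysosome genes, stood at −31.3 in KO SAMe vs WT and −33.1 in KO placebo vs WT at the same position. Foxp4, a forkhead transcription factor, stood at −29.0 in KO SAMe vs WT and, at the same position, −23.8 in KO placebo vs WT in the authors' deposited tables. A further site within 2 kb of Foxp4 stood at −21.0 in KO placebo vs WT only. Mdfi, an inhibitor of myogenic factors, had a site at −34.9 in KO placebo vs WT only.

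The tables allow a rough look at how far neighbouring values scatter. In KO placebo vs WT, 241 pairs of sites on the same strand lay at most 5 bp apart, and their differences from WT were a median of 4.36 percentage points apart in the authors' deposited table, with a 90th percentile of 13.0. At the locus there were 4 such pairs, from 0.132 to 14.1 apart, the largest being 47672698 and 47672700. The pair of the locus in KO SAMe vs WT, 47672585 and 47672588, was 2.89 apart. At the 23 CpG dinucleotides listed on both strands in KO placebo vs WT, none of them at the locus, the strands were a median of 5.71 apart and at most 16.9.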
